A study of Mus musculus with 18 samples.

Results

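The respiratory chain subunits described here are the nuclear genes whose symbols begin with Ndufa, Ndufb, Ndufc, Ndufs, Ndufv, Uqcr, Cox4, Cox5, Cox6, Cox7, Cox8 or Atp5, together with Sdha, Sdhb, Sdhc and Sdhd. The 8 Ndufaf assembly factors and all pseudogenes were left out. The rule found 85 genes among the 19505 of the array, each with 1 probe set. By complex they were 38 genes of complex I, 4 of complex II, 8 of complex III, 18 of complex IV and 17 of complex V. Ndufb1 and Ndufb4c also meet the rule by name and were not analysed here, and neither were the 13 subunits that the mitochondrial genome encodes.

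RNA came from bone marrow mesenchymal cell preparations of 18 mice, 1 mouse per array. The groups were BALB/c controls and NeuT mice of 12 weeks (5 and 5 mice) and of 24 weeks (4 and 4 mice). NeuT mice carry an activated rat Erbb2 (neu) transgene and develop mammary tumours. The labels place the younger NeuT mice at an early and the older ones at a late stage of mammary tumorigenesis and call both tumour-bearing, so the transgene, the tumours and any other difference of strain cannot be told apart, and the promoter of the transgene is not given in the sources used here. Cells from femurs and tibias had been depleted with magnetic beads against CD45, Ter119, CD11b, CD11c, CD3, Gr1 and B220, and flow cytometry then followed CD45, CD29 and CD44. No treatment is named for any group. Age cannot be told apart from a processing batch of the ages. The questions are how NeuT and control preparations differ at 12 and at 24 weeks, and whether the 2 differences are alike.

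The respiratory chain sits in the inner mitochondrial membrane. Complex I takes electrons from NADH and complex II from succinate, ubiquinone carries them to complex III and cytochrome c to complex IV, where oxygen is reduced. Complexes I, III and IV pump protons, and complex V, the ATP synthase, uses the proton gradient to make ATP. Several complex IV subunits exist as a ubiquitous form and as forms known from muscle, lung or testis.

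All values are log2 signals, so a difference of 1 is a doubling, and the levels of different genes are not on a common scale. The negative control probe sets had a median of 7.35 and a 95th percentile of 10.46. Of the 85 members 70 (82.4%) averaged above that percentile, against 17.9% of all genes, and 65 lay above it in every array, against 13.3% of genes. The 3488 genes that average above it, called bright genes below, therefore serve as a second reference beside all genes. Unless stated, all 85 members are set beside them, although 15 of the 85 are not bright. The arrays had gene medians of 8.43 to 8.56 and pairwise correlations of 0.978 to 0.997 over genes, which are no replicates. BALB/c 24-week replicate 1 stood apart in scale, with a maximum of 13.92 and a 95th percentile of 11.66 over genes, where the others had maxima of 14.49 to 14.58 and 95th percentiles of 11.73 to 11.83. For NeuT 12-week replicate 4 the labels give conflicting mouse IDs. The label of the preparations was set against marker genes, each averaged over all 18 arrays. None of 13 stromal markers averaged above that percentile, whereas 9 of 14 neutrophil markers did, and the neutrophil precursor gene Elane read 13.62 to 14.24. The members were thus measured in preparations with blood-cell transcripts at high signal. In such bulk RNA, fewer cells of a type and less RNA per cell cannot be told apart.

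At 12 weeks 4 members passed the test and were higher in NeuT mice: Ndufs1 and Ndufb3 of complex I, and Atp5pb and Atp5c1 of complex V. The rises were between 1.202-fold and 1.27-fold. None fell (background 0.687%), and 81 did not pass. The 4 are 4.71% of the members, against 3.15% of all genes called higher at this age, so the share was near the background. Of the 70 members that are bright genes 2 were called higher (2.86%), against 5.30% of all bright genes. The test was limma's moderated test with Benjamini-Hochberg adjustment over all genes and a threshold of 0.05. At an unadjusted p under 0.05 there were 18 members (21.2%), against 21.0% of all genes.

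Ndufs1 (Entrez gene 227197) encodes the largest core subunit of complex I, which carries iron-sulphur clusters. Its log2 signals were 9.26, 9.08, 9.17, 9.18 and 9.13 in BALB/c and 9.41, 9.35, 9.37, 9.87 and 9.54 in NeuT mice of 12 weeks. The groups did not overlap, and NeuT replicate 4 was the highest. Ndufs1 stayed under the 95th percentile of the negative controls in every array, which limits what its difference shows. Ndufs1 rose by 0.35 ± 0.084 (log2 difference ± SE, 1.27-fold, adjusted p = 0.0226, n = 5 and 5). This was the most stable of the 4 calls: it held in 8 of the 10 fits without 1 of the 12-week arrays and in 11 of 13 other alternatives, and ended without BALB/c replicate 2 (adjusted p = 0.0724) or NeuT replicate 4 (adjusted p = 0.0526), with the erythroid covariate (adjusted p = 0.101) and with the neutrophil and B-cell covariates (0.35, adjusted p = 0.537). At 24 weeks its signals were 9.34, 9.37, 9.13 and 9.23 in BALB/c mice and 9.28, 9.28, 9.29 and 9.28 in NeuT mice. The older NeuT mice lay inside the range of their controls, with a difference of 0.014 ± 0.094 (adjusted p = 0.968).

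Ndufb3 (Entrez gene 66495) encodes a small accessory subunit of the membrane arm of complex I. It read 10.79, 10.56, 10.87, 10.90 and 10.83 in BALB/c and 11.13, 11.06, 11.05, 11.45 and 10.90 in NeuT mice of 12 weeks. NeuT replicate 5 lay within the control range and the other NeuT arrays above it. The rise was 0.32 ± 0.088 (1.25-fold, adjusted p = 0.0398). At 24 weeks the values were 10.94, 10.76, 10.89 and 10.77 against 11.01, 10.93, 10.89 and 11.05, and the difference of 0.13 ± 0.098 did not pass (adjusted p = 0.607).

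Atp5pb (Entrez gene 11950) encodes subunit b of the peripheral stalk that holds the ATP synthase head still. Its signals at 12 weeks were 11.103, 10.881, 11.003, 10.965 and 10.999 in BALB/c and 11.31, 11.30, 11.14, 11.58 and 11.09 in NeuT mice, so NeuT replicate 5 again overlapped the controls. Atp5pb rose by 0.30 ± 0.079 (1.23-fold, adjusted p = 0.0386). In the older mice it read 11.22, 11.20, 11.07 and 11.18 against 11.19, 11.20, 11.14 and 11.28, with a difference of 0.036 ± 0.089 (adjusted p = 0.898).

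Atp5c1 (Entrez gene 11949) encodes the gamma subunit, the rotating shaft of the ATP synthase. BALB/c mice of 12 weeks read 9.01, 9.08, 9.16, 9.16 and 9.13, and NeuT mice 9.35, 9.43, 9.34, 9.54 and 9.21. All NeuT arrays lay above all controls. Like Ndufs1, Atp5c1 stayed under the 95th percentile of the negative controls in every array. Atp5c1 rose by 0.27 ± 0.074 (1.202-fold, adjusted p = 0.0450). At 24 weeks the values were 9.27, 9.33, 8.99 and 9.18 against 9.30, 9.29, 9.18 and 9.30, with a difference of 0.075 ± 0.083 (adjusted p = 0.742). Atp5c1 and Atp5pb each have a pseudogene named after them in RefSeq, which the probes could also read, and the Ndufs1 locus overlaps the antisense gene Ino80dos.

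Without 1 of the 12-week arrays the call of Atp5c1 ended in 9 of 10 fits and those of Atp5pb and Ndufb3 in 8 each. Atp5c1 also lost its call in 5 of 8 fits without 1 of the 24-week arrays, which set the spread only, at adjusted p-values of 0.0516 to 0.0545. The count of 4 became 0 without BALB/c replicate 2 or NeuT replicate 4, 1 without BALB/c replicate 1, 4 or 5 or NeuT replicate 1 or 2, 2 without BALB/c or NeuT replicate 3, and 10 without NeuT replicate 5. The share of all genes called in each of these fits is not given here. These counts therefore do not show a change particular to the members. Sdhd, the closest member outside the threshold, passed in 5 of all the alternatives and single-array fits.

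**Figure D1:**
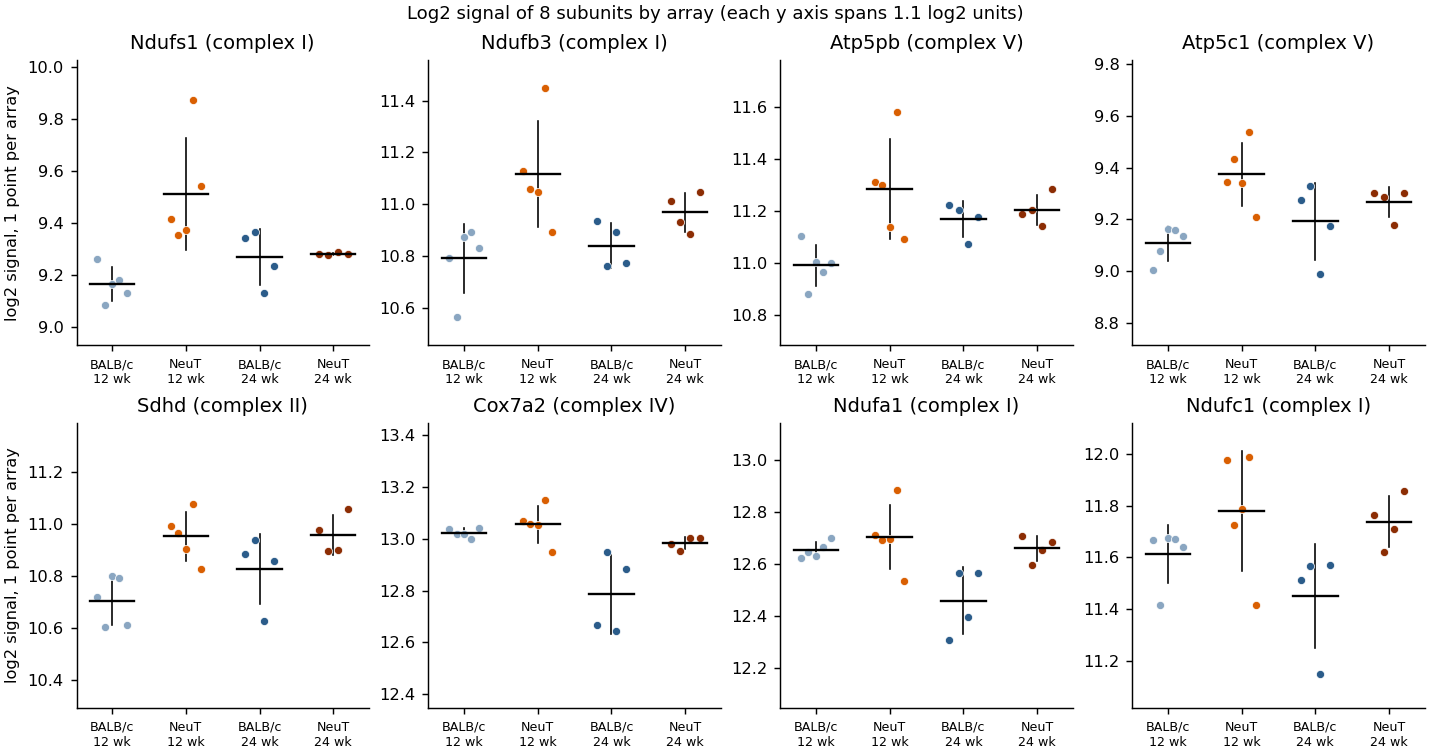
Log2 signal of 8 subunits in each of the 18 arrays, 1 point per array, with the group mean (horizontal line) and SD (vertical line). The upper row holds the 4 members called at 12 weeks, where NeuT replicate 4 is the highest point of each, and the lower row Sdhd and the 3 members with the smallest p at 24 weeks, for which BALB/c replicate 1 or 3 is the lowest array of the older mice.

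The 4 genes of complex II, which is also the succinate dehydrogenase of the citric acid cycle, had differences above 0 at both ages, and none passed. Sdhd encodes a membrane anchor of the complex. It read 10.72, 10.60, 10.80, 10.79 and 10.61 in BALB/c and 10.99, 10.96, 10.90, 11.08 and 10.82 in NeuT mice of 12 weeks, without overlap, and the difference was 0.25 ± 0.073 (adjusted p = 0.0581). For Sdha, the flavoprotein with the succinate site, the difference was 0.16 ± 0.095 at 12 weeks and 0.097 ± 0.11 at 24 weeks. The iron-sulphur subunit Sdhb had 0.14 ± 0.10 and 0.19 ± 0.11, and the other membrane anchor, Sdhc, 0.064 ± 0.084 and 0.10 ± 0.093. Without BALB/c 24-week replicates 1 and 3 the 24-week value of Sdhb was -0.015. Sdhd at 24 weeks gave 0.13 ± 0.082 (adjusted p = 0.520). The levels of Sdha, 9.32 to 10.07, and of Sdhc, 8.997 to 9.59, never reached the 95th percentile of the controls.

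By complex, the median difference at 12 weeks was 0.12 for complex I, 0.15 for complex II, 0.084 for complex III, 0.018 for complex IV and 0.096 for complex V. The median of all 85 members was 0.086, beside -0.025 for all genes and 0.039 for bright genes. Differences lay above 0 for 73 members in all: 35 of 38, 4 of 4, 7 of 8, 10 of 18 and 17 of 17 by complex. The 73 are 85.9%, against 42.6% of all genes and 59.98% of bright genes, and with the neutrophil and B-cell covariates the count was 40 of 85, with 18 of 38 in complex I. Complexes I, II, III and V thus had all or nearly all members on the same side, although only complexes I and V hold calls. Complex IV was divided, with a median of -0.012 after a further quantile normalisation, -0.0096 after cyclic loess and -0.0058 with array weights. Its lowest values were those of Cox8b, Cox8c, Cox4i2, Cox7a1 and Cox6a2. These genes stayed under the 95th percentile of the negative controls in every array, so the division rests largely on dim genes. Members of a complex share their arrays and are not replicates, so no test is given for these medians. Without NeuT 12-week replicate 4 the median of the members was 0.053.

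In complex I the 6 measured core subunits, those conserved from bacteria, had a median of 0.12 at 12 weeks, and so did the 32 accessory subunits. Beside Ndufs1, the core subunits Ndufs7 and Ndufs3 had differences of 0.21 ± 0.083 (adjusted p = 0.151) and 0.12 ± 0.071 (adjusted p = 0.327), and the NADH-binding subunit Ndufv1 had 0.087 ± 0.067 (adjusted p = 0.479). In complex III, which passes electrons from ubiquinol to cytochrome c, the largest difference was that of the small subunit Uqcr11, with 0.11 ± 0.078 in the younger mice (adjusted p = 0.425) and 0.15 ± 0.087 in the older (adjusted p = 0.472); with the neutrophil and B-cell covariates both lie on the other side of 0. The core protein gene Uqcrc2 lay at -0.015 ± 0.059 and -0.012 ± 0.066, and the Rieske iron-sulphur protein gene Uqcrfs1 at 0.084 ± 0.069 and -0.061 ± 0.077. The catalytic subunit genes of the ATP synthase, Atp5a1 and Atp5b, had 0.062 ± 0.070 and 0.040 ± 0.073 at 12 weeks. No gene named in this paragraph except Ndufs1 passed at either age. Ndufs3, Ndufs7, Ndufv1, Uqcrc2, Uqcrfs1, Atp5a1 and Atp5b were chosen for their roles after their values were seen.

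**Figure D2:**
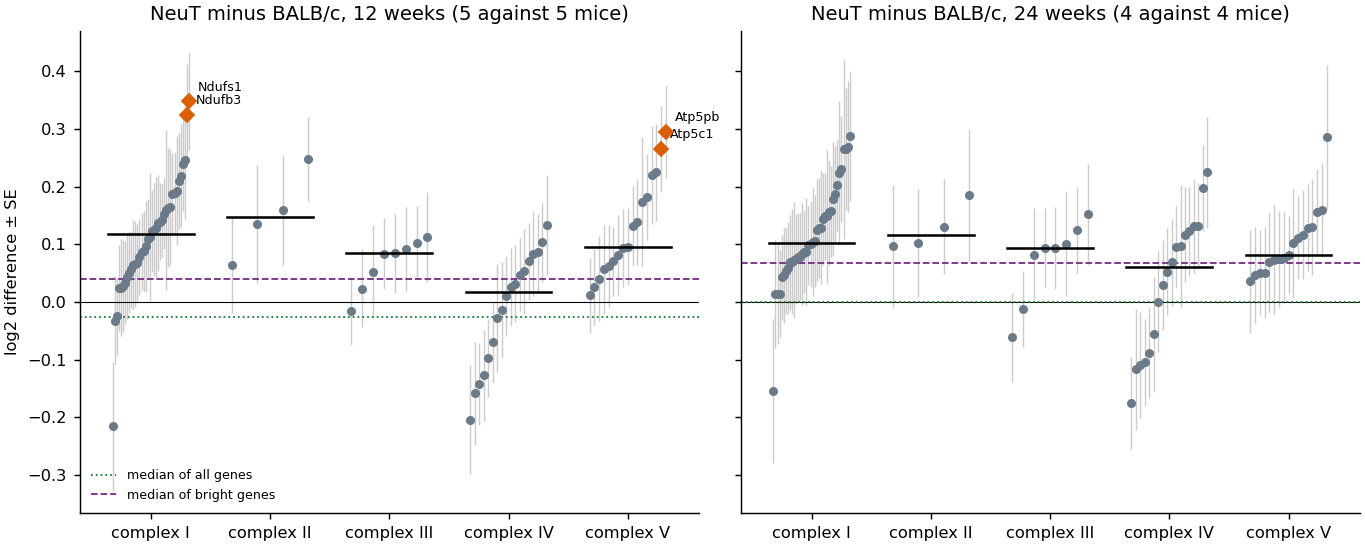
Log2 difference of NeuT minus BALB/c for each of the 85 members by complex, at 12 weeks on the left and 24 weeks on the right, with SE (grey lines), the median of each complex (black bars) and the medians of all genes (dotted) and of bright genes (dashed). Orange diamonds are the 4 members called at 12 weeks, and complex IV spreads to both sides of 0 at both ages.

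At 24 weeks no member passed, with a background of 1.18% of all genes called higher and 0.22% lower. At an unadjusted p under 0.05 there were 10 members (11.8%, against 13.2% of all genes), and none passed with any of the alternatives run. The median difference was 0.097, beside -0.00014 for all genes and 0.068 for bright genes, and 76 of 85 members lay above 0 (89.4%, against 49.9% of all genes and 70.7% of bright genes). That count was 49 after quantile normalisation, 46 after cyclic loess and 34 with the neutrophil and B-cell covariates. Medians by complex were 0.10, 0.12, 0.094, 0.061 and 0.082 for complexes I to V. The sign was not stable for complex IV, at -0.021 without BALB/c 24-week replicate 1, -0.025 after quantile normalisation and -0.019 after cyclic loess, nor for complex III, at 0.036, -0.015 and 0.00020 in that order.

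The smallest p-values at this age belonged to the complex IV subunit Cox7a2 and the complex I subunits Ndufa1, Ndufc1, Ndufv3 and Ndufs5. Cox7a2 read 12.669, 12.949, 12.645 and 12.882 in BALB/c and 12.981, 12.951, 13.001 and 13.001 in NeuT mice, a difference of 0.20 ± 0.075 (adjusted p = 0.227). For Ndufa1, an accessory subunit encoded on the X chromosome, the signals were 12.31, 12.56, 12.40 and 12.57 against 12.71, 12.60, 12.65 and 12.68, with a difference of 0.20 ± 0.079 (adjusted p = 0.246). The groups did not overlap for either gene, and BALB/c replicates 1 and 3 were the low arrays. Ndufc1 read 11.51, 11.57, 11.15 and 11.57 against 11.76, 11.62, 11.71 and 11.86, again without overlap (0.29 ± 0.11, adjusted p = 0.248). Ndufv3 and Ndufs5 had differences of 0.26 ± 0.11 and 0.23 ± 0.092. In complex V the largest difference was that of Atp5j, a peripheral stalk subunit (0.29 ± 0.13, adjusted p = 0.313), and in complex IV that of Cox5a, a matrix-side subunit (0.23 ± 0.096, adjusted p = 0.301). With the neutrophil and B-cell covariates Cox5a lay at -0.017, Ndufv3 at -0.052, Ndufc1 at 0.013 and Atp5j at 0.011.

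The NeuT arrays lay above all BALB/c arrays for 15 members at 24 weeks (17.6%, against 4.95% of all genes and 10.9% of bright genes), and below them for 1, Cox4i2 (background 1.76%). At 12 weeks this held for 6 members (7.06%, against 4.63% of all genes and 8.95% of bright genes), namely Atp5c1, Atp5mpl, Ndufs1, Ndufs3, Ndufs4 and Sdhd. No gene was among both the 15 and the 6. After a further quantile normalisation the 15 became 4 (4.71%, against 3.73% of all genes and 5.56% of bright genes). After cyclic loess they became 3 (3.53%, against 3.89% of all genes and 5.42% of bright genes). Ndufa1, Ndufb11 and Ndufs5 were in both, but these shares were near the background. The 24-week median of the members was 0.053 without BALB/c 24-week replicate 1, 0.012 after quantile normalisation and 0.013 after cyclic loess.

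The 2 ages did not differ by test. For the difference of the NeuT effects (24 minus 12 weeks) no member passed, with 0.0103% of all genes called. At an unadjusted p under 0.05 there were 2 members (2.35%, against 6.50% of all genes). These were Ndufs1, with a difference of effects of -0.33 ± 0.13 (95% interval -0.59 to -0.074, adjusted p = 0.724), and Atp5pb, with -0.26 ± 0.12 (95% interval -0.51 to -0.013, adjusted p = 0.750). For Atp5c1 and Ndufb3 the differences of effects were -0.19 ± 0.11 and -0.20 ± 0.13, with intervals that include 0. Ndufa3 and Cox7a2 followed with 0.17 ± 0.10 and 0.17 ± 0.100. Over all members the median was 0.012, beside 0.020 for all genes, and it turned to -0.023 without BALB/c 24-week replicate 1, -0.052 without BALB/c 24-week replicates 1 and 3, -0.034 after quantile normalisation, -0.021 after cyclic loess, -0.018 with array weights and -0.0080 with the neutrophil and B-cell covariates.

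Age within each mouse line gave no call either. In BALB/c mice 0 members passed for 24 against 12 weeks (background 0.579% of all genes). At an unadjusted p under 0.05 there were 5 (5.88%, against 15.3% of all genes). The median was -0.031 beside -0.018 for all genes and -0.0042 for bright genes. This median turned to 0.0073 without BALB/c 24-week replicate 1, 0.032 without BALB/c 24-week replicates 1 and 3, 0.0078 after quantile normalisation and 0.0097 with array weights. The smallest p was that of Cox7a2, which differed by -0.24 ± 0.071 (adjusted p = 0.102), followed by Ndufa1 with -0.20 ± 0.075 (adjusted p = 0.201). Atp5j2 (-0.16 ± 0.069), Ndufa3 (-0.15 ± 0.071) and Atp5pb (0.18 ± 0.084) came next. The older controls are also the low group for both genes in the 24-week comparison, which shares these 4 arrays. In NeuT mice 0 members passed (background 0.0359%), and the median was -0.037 beside -0.0031 for all genes. At an unadjusted p under 0.05 there was 1 member (1.18%, against 12.6% of all genes). That member was Ndufs1 (-0.23 ± 0.089, adjusted p = 0.267). Cox6a2, Sdhc, Ndufb9 and Ndufb3 followed with -0.13 ± 0.072, 0.15 ± 0.089, -0.14 ± 0.086 and -0.15 ± 0.093.

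**Figure D3:**
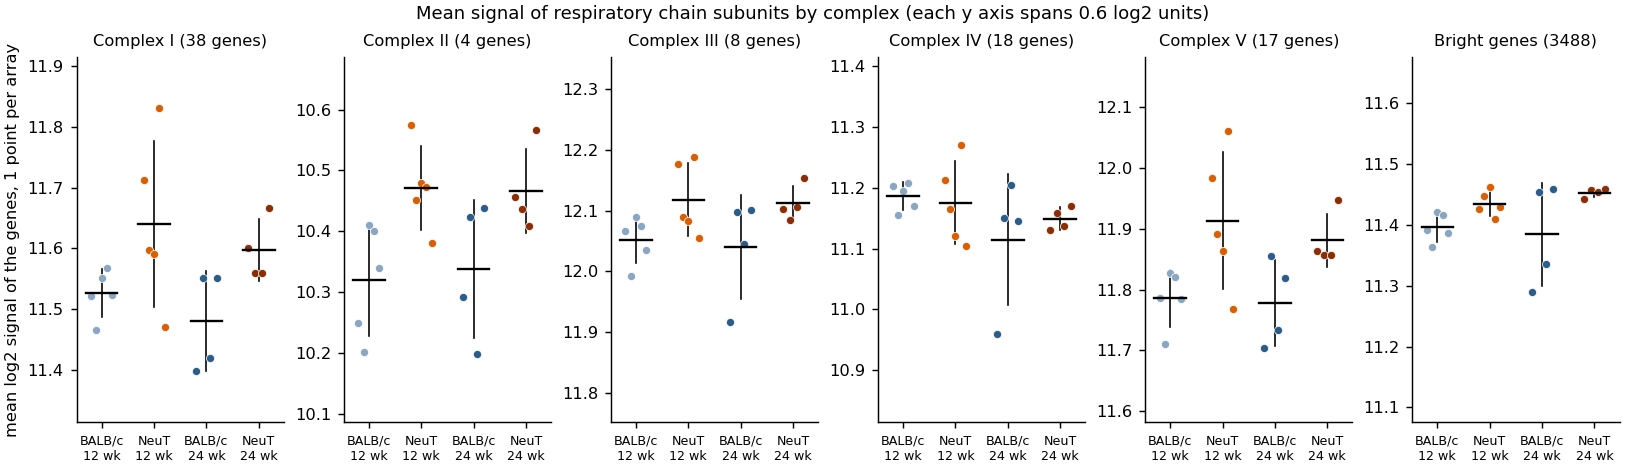
Mean log2 signal over the genes of each complex, and over the bright genes, for each array (1 point), with the group mean (horizontal line) and SD (vertical line). In complexes I and V NeuT 12-week replicate 4 is the highest array and NeuT 12-week replicate 5 lies within the control range, while BALB/c 24-week replicates 1 and 3 are the 2 lowest arrays of their group.

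Single arrays carried much of the spread of these genes. NeuT 12-week replicate 4 held the highest of the 18 signals for 59 of the 85 members, BALB/c 24-week replicate 1 the lowest for 35 and BALB/c 24-week replicate 3 the lowest for 17. The mean over all members was 11.50 ± 0.038 (SD, n = 5) in BALB/c and 11.59 ± 0.10 (n = 5) in NeuT mice of 12 weeks, and 11.46 ± 0.076 (n = 4) and 11.55 ± 0.039 (n = 4) at 24 weeks. The younger groups overlapped, at 11.44 to 11.54 and 11.46 to 11.73, and the older groups touched, at 11.36 to 11.526 and 11.527 to 11.61. Within groups the pooled SD of the members' mean was 0.072, against 0.043 for bright genes and 0.025 for all genes. These means run over 85, 3488 and 19505 genes, and normalisation acts on all genes together, so the SDs are not on a common footing.

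Blood-cell markers moved in the same comparisons. The mean of the 14 neutrophil markers ranged from 11.16 to 11.65 in BALB/c and from 11.34 to 12.33 in NeuT mice of 12 weeks, and from 11.16 to 11.55 and 11.57 to 12.29 at 24 weeks. Of these markers 5 rose at 12 weeks and 6 at 24 weeks, with median differences of 0.44 and 0.61. The mean of the 8 B-cell markers ranged from 11.05 to 11.26 and from 9.76 to 11.17 at 12 weeks, and from 11.14 to 11.40 and 10.06 to 11.11 at 24 weeks, with medians of -0.55 and -0.77 and no call. The mean of the 6 erythroid markers ranged from 11.42 to 11.62 and 10.98 to 11.41, and from 11.06 to 11.29 and 10.46 to 11.36, with medians of -0.24 and -0.28 and no call. NeuT 12-week replicate 4 had the highest neutrophil mean of its age, 12.33, and replicate 5 the lowest of the NeuT mice, 11.34, and these were also the highest and lowest NeuT arrays of that age for the mean of the members. The order of the others differed: replicate 1 had the next highest mean of the members (11.65) and the next lowest neutrophil mean (11.87). At 24 weeks NeuT replicate 3 had the highest neutrophil mean (12.29) and the lowest mean of the members (11.527) of its group. The B-cell mean was lowest in NeuT 12-week replicate 1 (9.76), whereas NeuT 12-week replicate 4 had 11.04. NeuT 24-week replicates 1 and 4 had the lowest B-cell means of their group (10.06 and 10.15) and its highest means of the members (11.55 and 11.61). With the neutrophil and B-cell means as covariates no member passed at either age. The members' median was -0.0079 at 12 weeks and -0.015 at 24 weeks, and complex II kept the highest median of the 5 complexes at both ages (0.078 and 0.038). These covariates differ with the groups: the neutrophil means did not overlap at 24 weeks and overlapped only in part at 12 weeks. Such a fit cannot separate the covariates from the NeuT difference, so no conclusion is drawn from it. With these covariates 4 of all genes were called at 12 weeks. With the erythroid mean as covariate no member passed and the medians were 0.068 and 0.081. The share of all genes called in that fit is not given here.

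**Figure D4:**
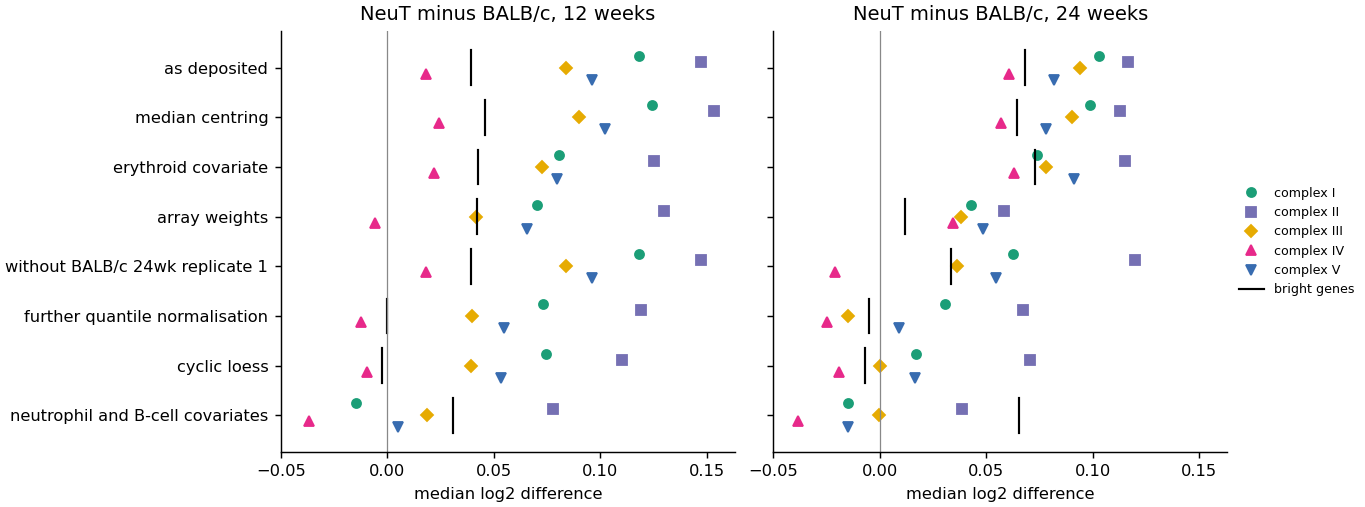
Median log2 difference of NeuT minus BALB/c for each complex (coloured symbols) and for the bright genes (black bars) as deposited and under 7 other settings, at both ages. Complex II has the highest median and complex IV the lowest in all 8 settings at 12 weeks. Complex IV includes tissue forms that stay under the 95th percentile of the negative controls in every array. With the neutrophil and B-cell covariates, which themselves differ between the groups, all complexes lie below the bright genes at 24 weeks.

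Of the 8 complex IV members below 0 at 12 weeks, the 5 lowest were forms known mainly from other tissues: Cox8b (-0.20 ± 0.094), Cox8c (-0.16 ± 0.089), Cox4i2 (-0.14 ± 0.071), Cox7a1 (-0.13 ± 0.079) and Cox6a2 (-0.097 ± 0.068). None passed. These 5 had low signals: Cox8b, a muscle form, read 7.31 to 7.91, close to the median of the negative controls, Cox8c, a testis form, 8.21 to 8.90, Cox4i2, a lung form, 8.39 to 8.84, and the muscle forms Cox7a1 and Cox6a2 8.62 to 9.05 and 9.53 to 9.96. These 5 stayed under the 95th percentile of the controls throughout. Cox7b2 lay at 5.39 to 5.72, under the control median in every array, so its differences (0.0099 and -0.088) say nothing of its expression. At 24 weeks Cox7a1 lay at 0.00035 ± 0.088.

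The ubiquitous forms all lay above that percentile. Cox4i1 read 13.01 to 13.39, Cox6a1 12.52 to 12.90, Cox6b1 11.39 to 11.74, Cox7a2 12.64 to 13.15 and Cox8a 12.13 to 12.496. Their differences at 12 weeks were 0.047, -0.070, 0.086, 0.032 and 0.070, and none passed. Cox7a2l, a factor in the joining of complexes III and IV, read 10.95 to 11.66, with -0.028 ± 0.094 at 12 weeks and 0.097 ± 0.11 at 24 weeks. An exception among the tissue forms was Cox6b2, known from testis, at 11.79 to 12.26, with differences of -0.014 ± 0.082 and -0.11 ± 0.092. Cox4i2 was the member whose groups did not overlap downwards at 24 weeks: it read 8.60, 8.75, 8.84 and 8.59 in BALB/c and 8.54, 8.53, 8.57 and 8.44 in NeuT mice (-0.18 ± 0.080, adjusted p = 0.339).

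Ndufa4, named for complex I and now regarded as a complex IV subunit, read 12.51 to 12.94, and its relative Ndufa4l2, a hypoxia-induced form, 7.09 to 8.05. Both were counted by symbol with complex I and its accessory subunits here. Ndufa4l2 had the lowest difference of all members at 12 weeks, -0.22 ± 0.11 (adjusted p = 0.272), at signals around the median of the negative controls. The genes Atp5g1, Atp5g2 and Atp5g3, which encode the same mature c subunit of the ATP synthase ring, read 11.77 to 12.39, 10.32 to 10.68 and 12.01 to 12.34. Atp5g1 had the largest difference of the 3 at 12 weeks (0.22 ± 0.084, adjusted p = 0.128) and Atp5g2 at 24 weeks (0.16 ± 0.076, adjusted p = 0.387).

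When arrays were weighted by their quality (limma's arrayWeights), 3 members fell from 12 to 24 weeks in BALB/c mice, where 2375 genes were then called of 19505. They were the muscle forms Cox8b (-0.35 ± 0.086, adjusted p = 0.0136), Cox7a1 (-0.23 ± 0.063, adjusted p = 0.0206) and Cox6a2 (-0.18 ± 0.059, adjusted p = 0.0466). Unweighted, these differences were -0.19 ± 0.100, -0.16 ± 0.083 and -0.12 ± 0.072 (adjusted p = 0.363, 0.353 and 0.453). All 9 skeletal muscle markers lay below 0 in the same comparison, unweighted, with a median of -0.20 and no call. Their mean ranged from 8.05 to 8.45 in the younger and from 7.90 to 8.12 in the older controls. This was not particular to muscle: all 6 erythroid, 7 proliferation and 5 megakaryocyte markers also lay below 0 (medians -0.24, -0.11 and -0.21). The neutrophil, monocyte and macrophage, B-cell, and T and NK cell lists had medians above 0, and the stromal and endothelial lists below 0. The part of carried-over muscle in these differences was not tested.

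**Figure D5:**
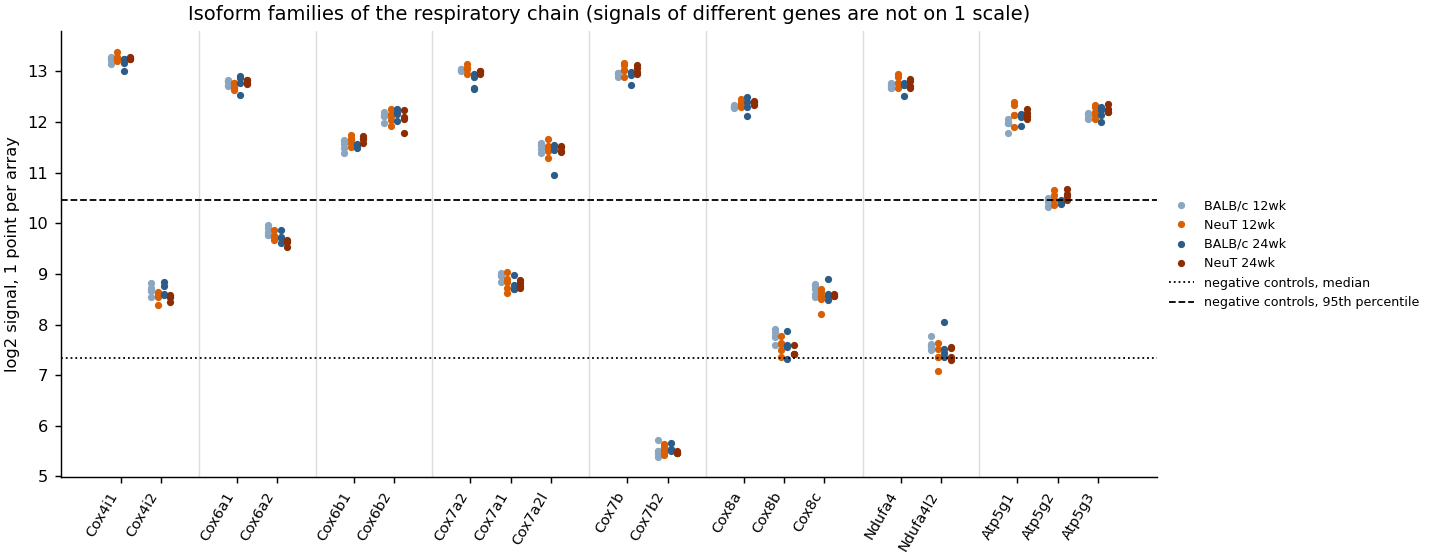
Log2 signal of the isoform families in each of the 18 arrays (1 point per array, coloured by group), with the negative controls' median (dotted) and 95th percentile (dashed). Cox4i2, Cox6a2, Cox7a1, Cox7b2, Cox8b, Cox8c and Ndufa4l2 lie under the dashed line in every array, and Cox6b2 lies above it.

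Promoters of 4 of the 5 members with the smallest p at 12 weeks are given here to show how these genes begin. Windows from 250 bases before to 50 bases after the start from RefSeq (GRCm38.p6) were used for 70 of the 85 members, and Ndufs1 is not among them. In 24 of the 70 (34.3%) another gene reached into the 250 bases before the start, against 23.0% of 15691 array genes. This was so for Atp5c1 (neighbour Kin), Atp5pb (Wdr77), Ndufb3 (Fam126b) and Sdhd (Timm8b), each with the neighbour on the opposite strand. The stretches below run 5′ to 3′ and end at the base before the start. For these 4 they are cut where the neighbour begins, and Ndufb4, a complex I accessory subunit gene, is added as 1 of the members with most matches of the NRF1 motif, 3, as many as Sdha. Capitals mark motif matches.
Atp5c1 (chr2:10080511-10080550, minus strand): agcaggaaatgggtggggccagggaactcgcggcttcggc
Atp5pb (chr3:105959264-105959497, minus strand): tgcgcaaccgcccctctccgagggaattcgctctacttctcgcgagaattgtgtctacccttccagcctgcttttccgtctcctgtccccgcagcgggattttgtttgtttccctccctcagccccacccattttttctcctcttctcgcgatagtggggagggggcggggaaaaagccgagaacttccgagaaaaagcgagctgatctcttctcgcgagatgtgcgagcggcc
Ndufb3 (chr1:58586334-58586396, plus strand): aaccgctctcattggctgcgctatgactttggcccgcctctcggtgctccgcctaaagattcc
Sdhd (chr9:50603850-50603900, minus strand): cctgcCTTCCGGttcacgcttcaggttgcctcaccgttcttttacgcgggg
Ndufb4 (chr16:37654369-37654618, minus strand): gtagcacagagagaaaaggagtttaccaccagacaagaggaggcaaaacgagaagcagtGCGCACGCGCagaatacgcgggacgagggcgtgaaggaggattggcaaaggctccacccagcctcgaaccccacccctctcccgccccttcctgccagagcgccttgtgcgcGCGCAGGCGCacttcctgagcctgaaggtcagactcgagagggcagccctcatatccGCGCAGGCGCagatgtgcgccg
Of the neighbours, the arginine methyltransferase cofactor gene Wdr77 also rose at 12 weeks (0.29 ± 0.075, adjusted p = 0.0296), by about as much as Atp5pb. Kin, Fam126b and Timm8b had -0.16 ± 0.087, -0.022 ± 0.079 and 0.13 ± 0.073 and did not pass. These neighbours were chosen by position after the members' values were seen.

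The windows were searched on both strands for 4 short motifs of factors known to act on nuclear genes of the respiratory chain. The NRF1 motif, GCGCA and GCGC with any 1 base between them, was in 17 of the 70 (24.3%, against 7.63% of array genes with a window), and the ETS motif CCGGAAG of GABPA in 17 (24.3%, against 13.2%). The ESRRA motif CAAGGTCA was in 4 (5.71%, against 1.48%) and the YY1 motif AAGATGGCG in 7 (10%, against 2.23%). No match overlapped one of another motif. Any of them was in 35 members (50%, against 21.9%), with 11 of 15 in complex V and 3 of 13 in complex IV. The Sdhd stretch holds the ETS motif 46 bases before the start, and a second start of Atp5c1 has the NRF1 sequence GCGCACGCGC 17 bases before it, at chr2:10080440-10080449. Members with any motif had a median difference of 0.11 at 12 weeks and 0.10 at 24 weeks, and those without had 0.065 and 0.12. A match is a description of letters, not a site in use.

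Genes that build or feed the chain were looked at as lists, beside the 3.15% of all genes called higher at 12 weeks. Of 45 assembly factors 1 rose at 12 weeks, Ndufaf2 (0.40 ± 0.10, adjusted p = 0.0337), a complex I factor, and the list median was 0.14. Among 20 electron carriers and entry enzymes 1 rose, Coq2 of ubiquinone synthesis (0.33 ± 0.076, adjusted p = 0.0185; list median 0.12). In mitochondrial biogenesis and genome expression 1 of 18 rose, the mitochondrial single-stranded DNA binding protein gene Ssbp1 (0.29 ± 0.070, adjusted p = 0.0238; list median 0.13). Protein import and folding had 1 of 27, the chaperonin gene Hspd1 (0.93 ± 0.11, adjusted p = 6.17e-05; list median 0.10), and the nucleotide and phosphate carriers 1 of 8, the channel gene Vdac1 (0.29 ± 0.082, adjusted p = 0.0473; list median 0.14). None of these lists had a gene called lower at 12 weeks or any call in NeuT against BALB/c at 24 weeks, where the smallest p-values belonged to Uqcc3 (0.30 ± 0.10), Prodh (0.28 ± 0.100), Slirp (0.29 ± 0.098), Tomm7 (0.21 ± 0.098) and Ckmt1 (0.13 ± 0.089). Hspd1 alone of these lists had a different NeuT effect at the 2 ages (-0.996 ± 0.16, adjusted p = 0.0352). With age in BALB/c mice Bcs1l, Ecsit, Twnk, Hspd1 and Vdac1 rose and Cox20 fell (0.579% of all genes were called), and in NeuT mice none of the lists had a call.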

How the data were processed

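The authors deposited 1 log2 signal per probe set and array. Per the submitters' processing notes the values come from RMA, which quantile-normalises arrays and sums probes to probe sets, and from the Transcriptome Analysis Console. The sources used here give neither version nor genome build. Of 29129 probe sets 19572 had 1 gene symbol; for 55 genes with several, the one with the highest mean was kept. No filter on dim genes was applied.

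Each gene was fitted with 4 group means over all 18 arrays with limma 3.58.1 in R 4.3.3 (14 residual and 8.68 prior degrees of freedom; two-sided; Benjamini-Hochberg over 19505 genes; threshold 0.05). The fit was checked on simulated data. The number of arrays limits the precision. Members and gene lists were chosen with earlier results of these data known. Named were members past the threshold, the 5 smallest p per comparison, the largest difference per complex at each age, isoform families and the Sdh genes. Marker lists for monocytes and macrophages (4 of 8 higher and 1 lower at 12 weeks), T and NK cells (1 of 7 higher at 12 weeks, 1 higher and 3 lower at 24), megakaryocytes (0 of 5), endothelium (1 of 6 lower at 12 weeks), stroma (1 of 13 higher at 24 weeks) and proliferation (0 of 7) were measured too. Alternatives were other normalisations, filters, moderation, array weights, covariates and left-out arrays. Promoter windows are RefSeq's. Figures used matplotlib 3.10.9 in Python 3.11.15.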

Additional observations from a re-analysis of the deposited data

Results flagged for a closer look

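In 60 checks for 1 array far from the others of its group, 2 values stood out, where chance gives about 1 in 20. The mean over the complex V genes was 11.95 in NeuT 24-week replicate 4, and the next of that group was 11.86. Atp5c1 read 9.18 in NeuT 24-week replicate 3, and the next lowest of that group was 9.29. No member passed at 24 weeks with or without either array, and without either the 12-week call of Atp5c1 ended, at adjusted p-values of 0.0545 and 0.0544.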

How the results depend on the processing

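The 4 calls at 12 weeks became 1 after cyclic loess, 1 after a further quantile normalisation and 1 without the 3 arrays that correlate least (Ndufs1 each time), 2 when only the groups compared were fitted, and 0 with the erythroid covariate or the neutrophil and B-cell covariates. Leaving out 1 array gave 0 to 10. Except for the neutrophil and B-cell covariates, the share of all genes called in these settings is not given here. The counts therefore do not show a change particular to the members. The members' median at 12 weeks was -0.0079 with the neutrophil and B-cell covariates, which themselves differ between the groups. At 24 weeks the median was 0.013 after cyclic loess, 0.012 after quantile normalisation and -0.015 with those covariates, and 0.027 without BALB/c 24-week replicates 1 and 3, an alternative chosen after seeing the data. Array weights gave 3 calls for age in BALB/c mice, where the main count was 0. The cause was not tested. In the other alternatives and single-array fits the counts of 0 stayed at 0. No direction of a called member reversed. Leaving out 1 array gave medians of 0.053 to 0.12 at both ages. No paired analysis was possible because the labels give mouse IDs and no shared replicate numbers. With 4 or 5 mice a group and 1 probe set per member, the smallest difference that passed in the comparisons as reported was 0.27. Signals under the 95th percentile of the negative controls, as for 15 members on average, limit what their differences show.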
